A study of Triticum aestivum with 42 samples.

Results

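In leaf and crown of the winter wheat variety Harnesk, 63 of the 61179 probe-sets of the Affymetrix Wheat Genome Array had lost abundance in both tissues between 3 and 9 weeks after germination. A probe-set, which is a group of short probes for 1 transcript, was included if its higher 9-week value was 0.5 or less of its lower 3-week value in crown, and if the same held in leaf. This rule was met by 553 probe-sets in crown, 0.904% of those on the array, and by 700 in leaf, 1.14%. The 63 that met it in both tissues were 0.103% of the array, and the falls from 3 to 9 weeks that selected them are given here as a description, with no test.

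Plants grew in cabinets and harvest was in the middle of the light period. At 3 weeks the Harnesk plants were under a 14 h photoperiod, with 16°C in the light and 14°C in the dark, and a PAR (photosynthetically active radiation, no unit in the labels) of 280. At 5 weeks they were at 14°C and 10°C with 12 h and a PAR of 185, and at 9 weeks at 8°C and 4°C with 9 h and a PAR of 95. Each tissue and week of Harnesk had 2 arrays, labelled as biological replicates, and each RNA extraction was from 4 pooled plants, so that any p-value refers to the spread between such pools. Crown tissue was the apex with some stem below it, including the zone of vascular transition and the bases of young leaves. The control plants were of another winter variety, Solstice, and were kept at 16°C and 14°C throughout while light and day-length declined as for Harnesk, with 1 array per tissue and week. Variety and temperature therefore cannot be told apart when Harnesk is set beside the control. The remaining 24 arrays, of Paragon and vernalised Solstice, were not used, since their rows do not follow the identifier column.

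Winter wheat passes the cold season as a rosette of leaves on a short crown. The leaf blade is the main site of photosynthesis, whereas the crown holds the shoot apex, in which cells divide and new leaves are formed, and the survival of the crown decides the survival of the plant. As days shorten and temperatures fall, growth slows in both organs, while transcripts of cold acclimation accumulate and the apex becomes competent to flower, which is vernalisation. The arrays were of tissue samples, and fewer cells of a type and less RNA per cell cannot be told apart in them.

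Of the 63 probe-sets, 6 carried a gene symbol in the annotation used here and 57 had none, and over the whole array 1273 probe-sets have a symbol. The 63 came from 58 transcript clusters, as the first part of the identifiers shows. By the suffix of the identifier, 51 were specific probe-sets (_at), 7 contained probes that may bind other transcripts (_x_at), 3 were shared by transcripts of 1 gene (_a_at) and 2 were shared by several transcripts (_s_at). Of the 63, 12 (19.1%) had the prefix TaAffx, against 48.5% of the array. The share was also low among the 490 that met the rule in crown only (18.6%) and the 637 in leaf only (27.2%). Each deposited value is a ratio to a median of the probe-set, so a value of 1 is that median and the levels of different probe-sets cannot be compared. No member was at the lowest deposited value on any of the 18 arrays used.

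Most crown markers and part of the leaf markers went with the tissue labels at 5 weeks. Both sets of markers were chosen with earlier results of these data known. Of 16 probe-sets of the crown markers, which are histone genes of dividing cells, 15 were higher in crown than in leaf at 5 weeks and 0 were lower (limma, adjusted p below 0.05 and at least 2-fold). These 16 stand for 4 genes, and most of them read wcH2B-8 (LOC543184) or H2A-9 (LOC732714). Of 38 probe-sets of the leaf markers, which are genes of photosynthesis and of peroxisomal catalase, 1 was higher in crown and 19 were lower. These 38 stand for 7 genes, and most of them read 1 gene, rbcl (LOC100049018). A probe-set for the Calvin cycle enzyme phosphoribulokinase (PRK), 1 of the 38, was at the lowest deposited value of 0.01 on crown arrays of 3 and 5 weeks. Across Harnesk crown the summed level of the crown markers was 335 to 355 at 3 weeks, 299 to 318 at 5 weeks and 283 to 287 at 9 weeks, and most of each sum came from 1 probe-set, Ta.7378.17.S1_x_at, with means of 222, 187 and 190. The median over the 16 was 7.96 on both arrays of 3 weeks, 7.76 to 7.85 at 5 weeks and 5.98 to 6.12 at 9 weeks. In Harnesk leaf the summed level of the leaf markers was 88.2 to 98.3 at 3 weeks, 86.7 to 96.1 at 5 weeks and 64.3 to 66.6 at 9 weeks, and the median over the 38 was 1.71 to 1.90 at 3 weeks, 1.61 to 1.79 at 5 weeks and 1.43 on both arrays of 9 weeks. The markers of each tissue were thus somewhat lower at 9 weeks, and their part in the falls of the 63 was not tested. Neighbouring probe-sets of 1 cluster went together on the arrays used (correlation above that of other neighbours by 0.590 to 0.677 in Harnesk and 0.455 to 0.682 in the control), but not on the unused arrays (−0.091 to 0.025).

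The median change from 3 to 9 weeks over the 63 probe-sets was −1.80 on the log2 scale in crown and −1.84 in leaf, beside medians over all probe-sets of 0.01 in crown and −0.10 in leaf. In crown the folds of 3 over 9 weeks ran from 2.09 to 26.4, and in leaf from 2.09 to 15.5. The fall was the larger one in crown for 29 of the 63 and in leaf for the other 34. Ordered by the smaller of the falls in the 2 tissues, each from the lowest 3-week to the highest 9-week value, the list was led by TaAffx.64258.1.A1_at. In crown it had 4.86 and 4.80 at 3 weeks, 1.25 and 1.32 at 5 weeks, and 0.78 and 0.80 at 9 weeks. In leaf it had 4.10 and 4.29 at 3 weeks, 1.63 and 0.80 at 5 weeks, and 0.59 and 0.67 at 9 weeks. In both organs the values of the 3 harvests did not overlap, and most of the loss preceded the harvest of 5 weeks.

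**Figure D1:**
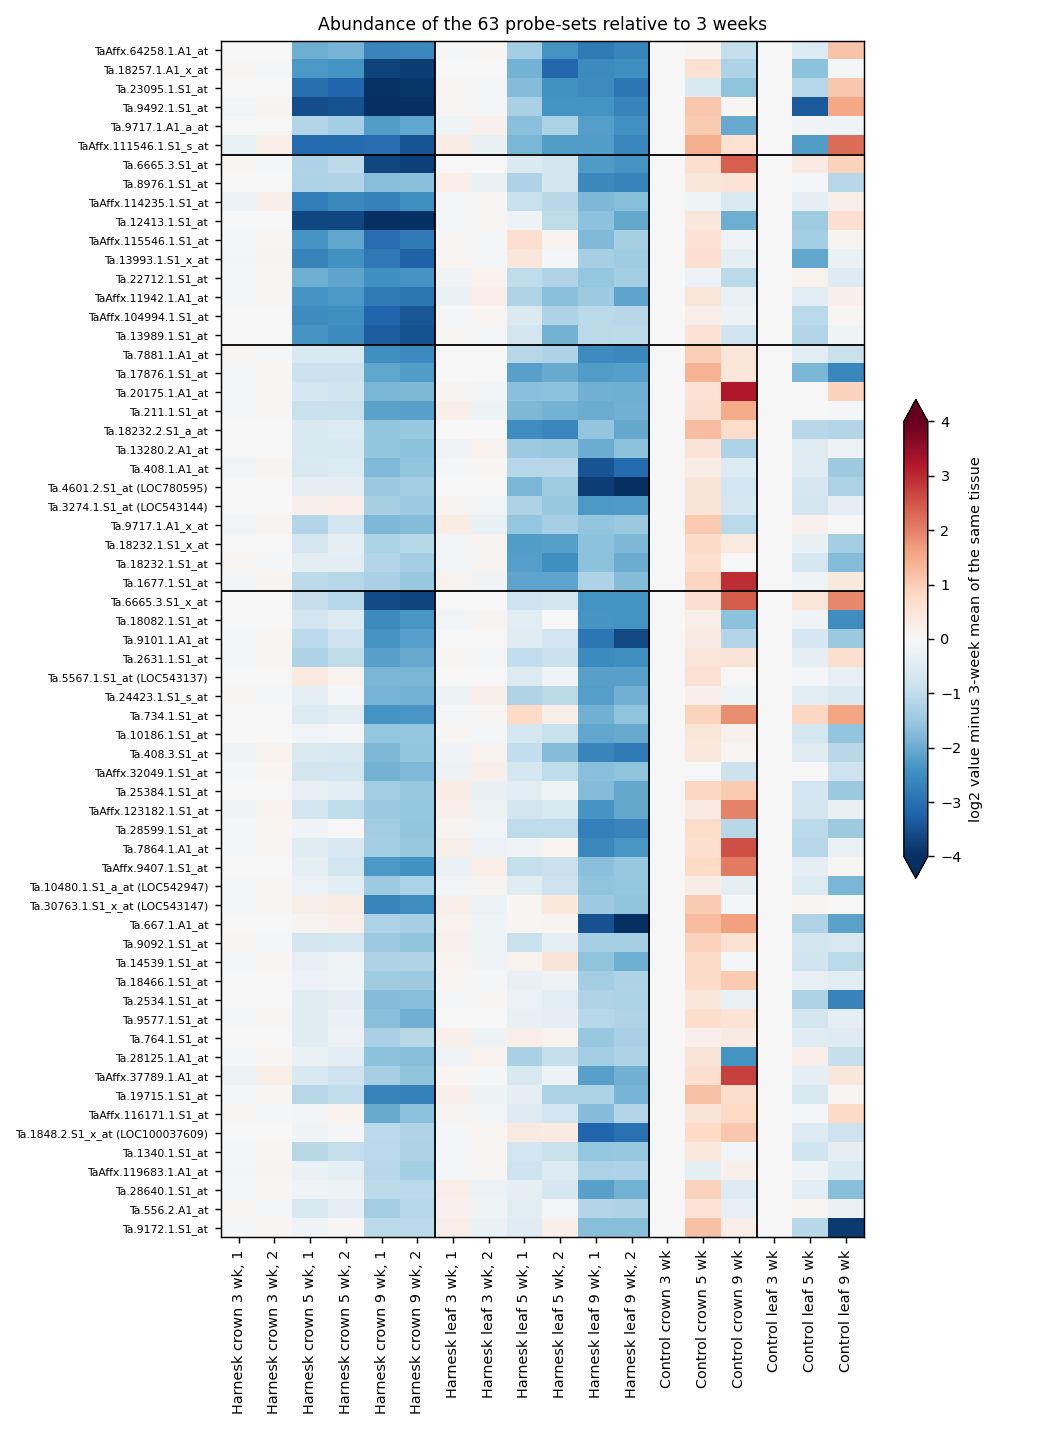
Log2 abundance of each of the 63 probe-sets (rows) on the 12 Harnesk and 6 control arrays (columns), relative to the 3-week mean of the same tissue and set of plants, with blue for lower and red for higher values (colours end at −4 and 4). Rows are grouped by black lines into 6 probe-sets that were 2-fold lower by 5 weeks in crown and leaf, 10 that were so in crown only, 13 in leaf only and 34 in neither, and the red cells lie mainly in the control columns.

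The next of the order were Ta.18257.1.A1_x_at and Ta.23095.1.S1_at. Ta.18257.1.A1_x_at had 0.60 and 0.56 in crown at 9 weeks, against 8.08 and 7.69 at 3 weeks, and 0.86 and 0.91 in leaf at 9 weeks, against 4.99 and 4.95 at 3 weeks. Ta.23095.1.S1_at had 0.39 and 0.40 in crown at 9 weeks, against 5.98 and 5.88 at 3 weeks, and 1.12 and 0.87 in leaf at 9 weeks, against 6.74 and 6.06 at 3 weeks. The crown fold was 13.6 for the first and 15.1 for the second, and the leaf folds were 5.63 and 6.47, so both fell further in crown. The largest crown fold of the 63, 26.4, was that of Ta.9492.1.S1_at, with 0.22 and 0.20 at 9 weeks, against 5.11 and 5.90 at 3 weeks. Its leaf values were 1.42 and 1.17 at 9 weeks, against 7.73 and 7.13 at 3 weeks. The other 8 of the first 12, Ta.7881.1.A1_at, Ta.6665.3.S1_x_at, Ta.6665.3.S1_at, Ta.18082.1.S1_at, Ta.9101.1.A1_at, Ta.9717.1.A1_a_at, Ta.17876.1.S1_at and Ta.2631.1.S1_at, had folds of 4.26 to 13.0 in crown and 4.68 to 9.57 in leaf. Over the whole group, 11 probe-sets were at 0.25 or less of their 3-week values in both tissues by the same reading of the replicates.

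At the other end, Ta.9172.1.S1_at only just qualified, with 0.393 and 0.392 in crown at 9 weeks, against 0.786 and 0.888 at 3 weeks, a ratio of 0.5. The ratios of Ta.13989.1.S1_at (0.499 in leaf) and Ta.556.2.A1_at (0.496 in leaf) were also near the limit. Just outside it were TaAffx.9237.1.S1_at, Ta.8058.1.S1_at and Ta.9246.1.S1_at, which passed in crown and had ratios of 0.506, 0.509 and 0.510 in leaf.

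The 6 annotated genes differed from each other in tissue and in timing. LOC780595 (Ta.4601.2.S1_at), also called TaGlu1a, codes for a beta-glucosidase that frees benzoxazinoids, the defence compounds of wheat seedlings, from their glucosides. Its crown values were 3.09 and 3.10 at 3 weeks, 2.37 and 2.43 at 5 weeks, and 1.11 and 1.18 at 9 weeks. In leaf it had 3.03 and 3.15 at 3 weeks, 0.87 and 1.16 at 5 weeks, and 0.23 and 0.18 at 9 weeks. Crown and leaf thus started at like values and parted, and the leaf fold of 15.5 was the largest among the 63.

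LOC543137 (Ta.5567.1.S1_at), LOC543144 (Ta.3274.1.S1_at) and LOC543147 (Ta.30763.1.S1_x_at) are part of a run of consecutively numbered gene records, and the tables used here name no product for them. LOC543137 had 3.24 and 3.31 in crown at 3 weeks, 4.28 and 3.58 at 5 weeks, and 0.91 and 0.92 at 9 weeks. LOC543144 had 3.61 and 3.75 in crown at 3 weeks, 4.25 and 4.38 at 5 weeks, and 1.47 and 1.34 at 9 weeks. LOC543147 had 5.49 and 5.78 in crown at 3 weeks, 6.70 and 6.96 at 5 weeks, and 0.91 and 1.00 at 9 weeks. In crown, all 3 had both values of 5 weeks above both values of 3 weeks, and the whole loss lay between 5 and 9 weeks.

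In leaf these genes were less alike. LOC543137 had 1.15 and 1.20 at 3 weeks, 0.80 and 1.04 at 5 weeks, and 0.26 and 0.26 at 9 weeks. LOC543144 had 0.73 and 0.62 at 3 weeks, 0.29 and 0.24 at 5 weeks, and 0.14 and 0.14 at 9 weeks, and so had already fallen by 5 weeks. LOC543147 had 1.12 and 0.81 at 3 weeks, 1.00 and 1.27 at 5 weeks, and 0.35 and 0.31 at 9 weeks, with values at 3 and 5 weeks that overlapped.

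The run of records, chosen after these values were seen, holds 14 genes with 16 probe-sets, of which 3 were members. From 3 to 9 weeks 4 of the 16 fell in crown, against 7.43% of all probe-sets, and 10 fell in leaf, against 16.9%, while 0 rose in either tissue, against 3.57% in crown and 17% in leaf (limma over the 12 Harnesk arrays, adjusted p below 0.05). The 3 members are in these counts by their selection, and without them 1 of 13 fell in crown and 7 of 13 fell in leaf. The one other probe-set of the run that fell in both tissues by this test was Ta.24120.1.S1_at for LOC543145, with means of 0.99 in crown at 9 weeks, against 1.79 at 3 weeks, and 0.22 in leaf at 9 weeks, against 1.01 at 3 weeks. A second probe-set of LOC543137, TaAffx.58852.1.S1_at, changed by −0.48 in crown and −1.17 in leaf (log2), less than the member did.

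LOC542947 (Ta.10480.1.S1_a_at) had the widest gap between the tissues among the annotated members. Its crown values were 0.32 and 0.35 at 3 weeks, 0.29 and 0.25 at 5 weeks, and 0.12 and 0.14 at 9 weeks. In leaf it had 20.9 and 23.8 at 3 weeks, 15.9 and 12.5 at 5 weeks, and 7.36 and 7.57 at 9 weeks. LOC100037609 (Ta.1848.2.S1_x_at) had 1.01 and 0.99 in crown at 3 weeks, 0.90 and 0.97 at 5 weeks, and 0.48 and 0.44 at 9 weeks. Its leaf values were 1.89 and 2.13 at 3 weeks, 2.58 and 2.53 at 5 weeks, and 0.22 and 0.25 at 9 weeks, and so the leaf level was at its highest at 5 weeks. The other probe-sets of LOC100037609, Ta.1848.1.S1_s_at and Ta.1848.2.S1_s_at, changed by −3.25 and −3.20 in leaf but by −0.74 and −0.41 in crown (log2).

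**Figure D2:**
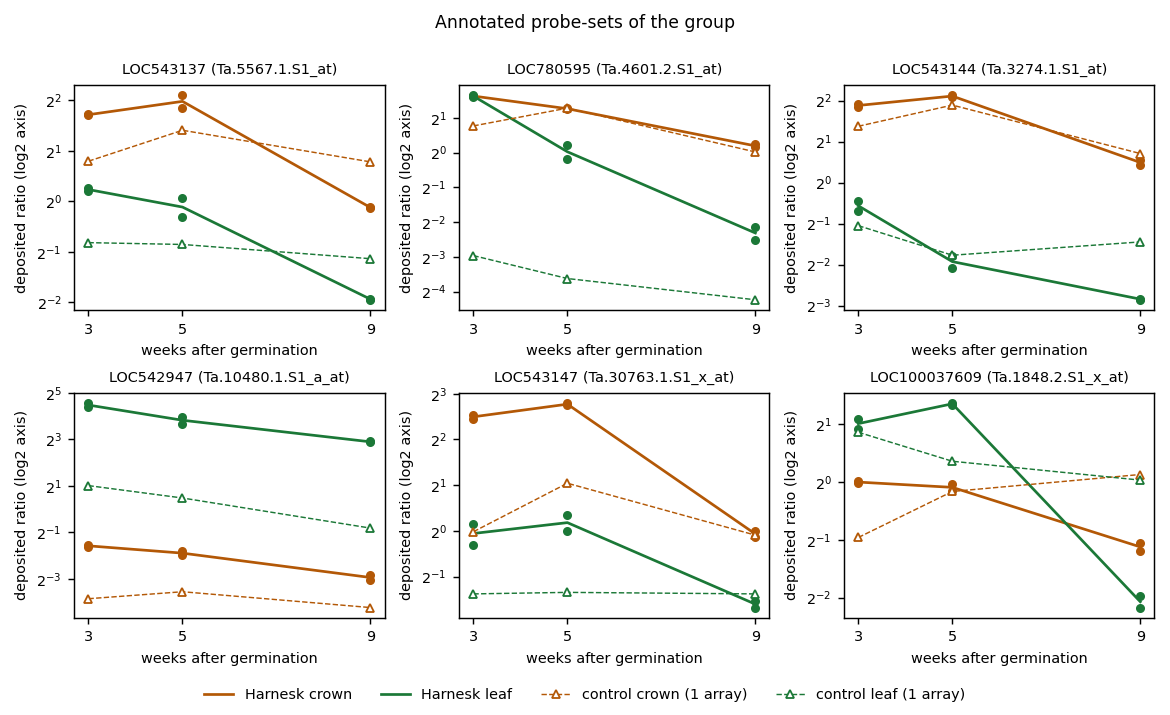
Deposited ratios (y axis, log2 scale, set separately for each panel) of the 6 annotated probe-sets at 3, 5 and 9 weeks, with circles for the 2 Harnesk arrays, solid lines through their means, and dashed lines with triangles for the single control arrays; crown is brown and leaf is green. LOC543137, LOC543144 and LOC543147 peak at 5 weeks in Harnesk crown, LOC100037609 peaks at 5 weeks in Harnesk leaf, and LOC542947 lies far higher in leaf than in crown throughout.

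The harvest of 5 weeks was not used by the rule, but its changes share the 3-week or 9-week arrays with it and are therefore described without a test. In crown, both 5-week values lay between those of 3 and 9 weeks for 52 of the 63 (7.36% of all probe-sets), and in leaf for 37 (6.03%). The median share of the log2 fall that was complete at 5 weeks was 37.6% in crown and 44.6% in leaf. By then 16 probe-sets were already at 0.5 or less of their 3-week values in crown (0.137% of all) and 19 in leaf (0.775% of all), by the same reading of the highest against the lowest replicate. These were 6 in both tissues, 10 in crown only and 13 in leaf only, with 34 in neither. From 5 to 9 weeks a further fall of this size was seen for 26 probe-sets in crown (0.503% of all) and 26 in leaf (0.825% of all), and for 12 in both. All of these shares of the 63 are raised by the choice of transcripts that were low at 9 weeks.

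The 16 probe-sets that had fallen by 5 weeks in crown differed in what followed that step. Those of the 16 named in the next sentences beyond the first 12 were picked after their values were seen. Ta.12413.1.S1_at had 11.8 and 12.2 in crown at 3 weeks, 0.97 and 0.96 at 5 weeks, and 0.62 and 0.61 at 9 weeks, so that nearly all of the loss came first. Ta.9492.1.S1_at had 0.47 and 0.49 in crown at 5 weeks, and Ta.23095.1.S1_at had 0.74 and 0.66. TaAffx.111546.1.S1_s_at had 6.75 and 9.67 in crown at 3 weeks, 0.94 and 0.96 at 5 weeks, and 0.98 and 0.74 at 9 weeks, with no further loss beyond the spread of the replicates. TaAffx.114235.1.S1_at likewise had 0.88 and 1.00 at 5 weeks and 0.91 and 1.09 at 9 weeks, after 5.12 and 6.96 at 3 weeks.

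In leaf the same transcripts behaved in several ways at 5 weeks. TaAffx.115546.1.S1_at had 3.16 and 3.00 in leaf at 3 weeks, 4.88 and 3.39 at 5 weeks, and 0.90 and 1.23 at 9 weeks. Ta.13993.1.S1_x_at had 2.91 and 2.64 at 3 weeks, 3.83 and 2.61 at 5 weeks, and 1.11 and 1.03 at 9 weeks. Both were low in crown at 5 weeks (0.67 and 0.80 for the first, 0.64 and 0.76 for the second) while in leaf at that harvest the first was above its values of 3 weeks and the second overlapped them. Ta.9492.1.S1_at, in contrast, had 3.03 and 1.415 in leaf at 5 weeks, both below its values of 3 weeks, and the second as low as the values of 9 weeks.

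The 2 leaf replicates of 5 weeks were less alike for these 16 than for the rest. Replicate 1 was the higher one for 14 of the 16, with a median log2 difference of 0.54, whereas it was higher for 21 of the other 47 members and for 44.4% of all probe-sets, with medians of −0.02 and −0.04. In crown at 5 weeks replicate 1 was higher for 6 of the 16, with a median difference of −0.05. The cause was not tested.

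**Figure D3:**
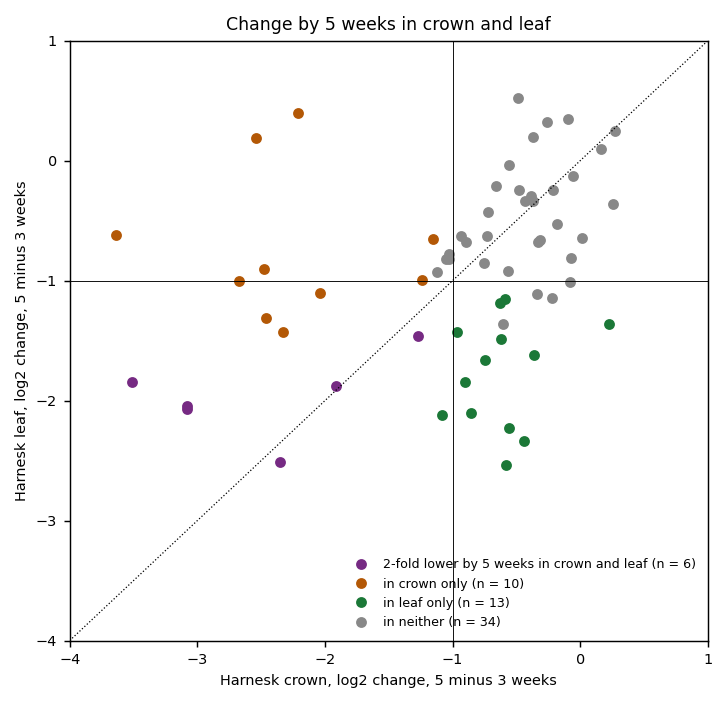
Change from 3 to 5 weeks in Harnesk crown (x axis) and Harnesk leaf (y axis), as log2 differences of means of 2 arrays, for the 63 probe-sets; colours show where the highest 5-week value was 0.5 or less of the lowest 3-week value, solid lines mark a 2-fold fall and the dotted line equal change. The 10 probe-sets low by 5 weeks in crown only spread to the left and the 13 low in leaf only spread downwards, and 34 lie in neither class.

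A second kind of profile was a leaf level that was lowest at 5 weeks. In leaf, 4 of the 63 had both 5-week values below both 9-week values, against 27% of all probe-sets, and 3 of the 4 were the members of cluster Ta.18232. Ta.18232.2.S1_a_at had 5.53 and 5.67 in leaf at 3 weeks, 1.01 and 0.92 at 5 weeks, and 1.86 and 1.37 at 9 weeks. Ta.18232.1.S1_x_at had 4.30 and 4.98, then 0.98 and 1.00, then 1.47 and 1.33, and Ta.18232.1.S1_at had 4.25 and 4.87, then 0.99 and 0.83, then 1.46 and 1.15 at the same weeks. These 3 probe-sets read 1 transcript cluster and are not independent. In crown they declined stepwise, with Ta.18232.2.S1_a_at at 2.01 and 1.94, 1.28 and 1.36, and 0.67 and 0.69. The fourth was Ta.1677.1.S1_at, with 3.04 and 2.46 in leaf at 3 weeks, 0.63 and 0.63 at 5 weeks, and 1.17 and 0.82 at 9 weeks.

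Some members were higher in 1 tissue at 5 weeks than at 3 weeks, whatever they did in the other tissue. Both 5-week values were above both 3-week values for 4 of the 63 in crown (20.4% of all probe-sets) and for 3 in leaf (19% of all). In crown these were LOC543137, LOC543144, LOC543147 and Ta.667.1.A1_at, and in leaf they were LOC100037609, TaAffx.115546.1.S1_at and Ta.734.1.S1_at. Ta.667.1.A1_at had 0.92 and 0.95 in crown at 3 weeks, 1.00 and 1.08 at 5 weeks, and 0.40 and 0.38 at 9 weeks. In leaf it had 7.25 and 5.87, then 6.85 and 7.08, then 0.58 and 0.41, one of the steepest late losses of the group.

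Crown and leaf at 5 weeks were compared with limma on the 4 Harnesk arrays of that harvest, none of which the rule had used. Of the 63 probe-sets 18 were higher in crown than in leaf, against 17.7% of all probe-sets, and 18 were lower, against 10.7% (adjusted p below 0.05 over all 61179 probe-sets and at least 2-fold). The other 27 (42.9%) did not pass, against 71.6% of all probe-sets. Of these 27, 18 had an unadjusted p below 0.05 with a difference under 2-fold or a failing adjusted p. Of the 490 probe-sets that fell by the rule in crown only, 369 (75.3%) were higher in crown and 31 (6.33%) were lower. Of the 637 that fell in leaf only, 98 (15.4%) were higher in crown and 389 (61.1%) were lower. Among the 63, those richer in crown and those richer in leaf were equal in number, unlike over all probe-sets. The largest class passed in neither direction, but it was a smaller share than over all probe-sets. Those falling in 1 tissue were mostly richer in that tissue at 5 weeks. The groups already differed so at 3 weeks, with median log2 differences of crown minus leaf of 2.38 (crown only), −2.17 (leaf only) and 0.27 (the 63). Since the rule used the 3-week values, the tissue levels of these groups are not independent of the selection. The difference between the groups was not tested.

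The largest difference was that of Ta.28125.1.A1_at, with 21.1 and 18.8 in crown and 0.28 and 0.36 in leaf at 5 weeks, a log2 difference of 5.96 ± 0.16 (SE, adjusted p = 5.0e-08 by limma). It fell in crown to 7.98 and 7.76 at 9 weeks, against 24.3 and 26.1 at 3 weeks, and in leaf to 0.26 and 0.30, against 0.63 and 0.76. At the other end stood LOC542947, at −5.72 ± 0.16 (adjusted p = 6.1e-08 by limma). Between 3 and 9 weeks the folds were 3.20 in crown and 2.48 in leaf for Ta.28125.1.A1_at, and 2.58 in crown and 2.99 in leaf for LOC542947. The rule required a fall of at least 2-fold in both tissues. That each also fell in the organ where it was scarce was therefore fixed by the selection.

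Among the other annotated members, LOC543144 (4.04 ± 0.15), LOC543147 (2.60 ± 0.16), LOC543137 (2.10 ± 0.17) and LOC780595 (1.25 ± 0.17) were higher in crown at 5 weeks, with adjusted p-values from limma of 2.0e-07, 2.7e-06, 1.7e-05 and 3.0e-04. LOC100037609 was lower in crown (−1.45 ± 0.13, adjusted p = 3.3e-05). Of the whole run of gene records, 6 of 16 probe-sets were higher in crown (17.7% of all probe-sets) and 0 were lower (10.7% of all). The members LOC543137, LOC543144 and LOC543147 are among these 6, and the run was chosen after their values were seen. None of the 16 transcripts that had fallen by 5 weeks in crown was higher in crown at that harvest, while 6 were lower and 10 did not pass, and the fall itself enters that difference.

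**Figure D4:**
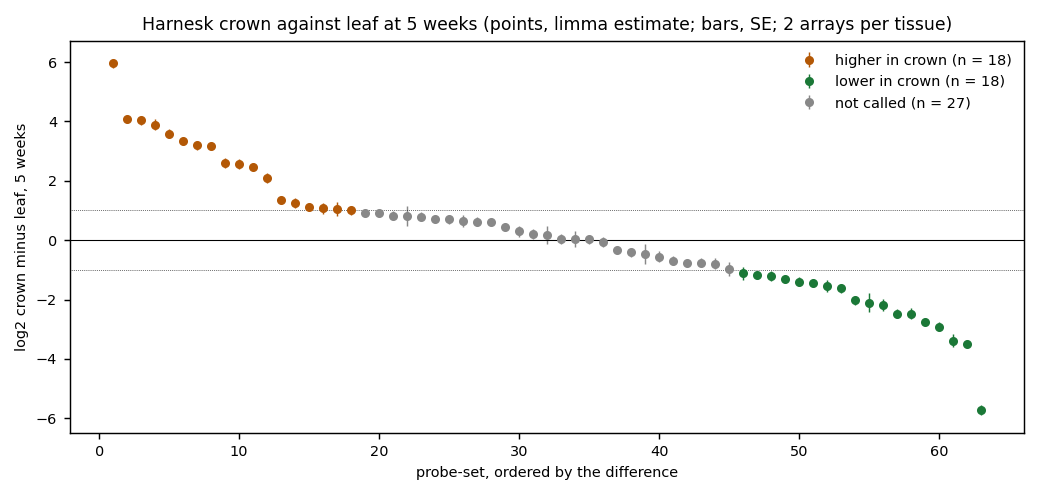
Difference between Harnesk crown and Harnesk leaf at 5 weeks (y axis, log2 crown minus leaf) for the 63 probe-sets in descending order (x axis), with points for limma estimates from 2 arrays per tissue and bars for standard errors; dotted lines mark 2-fold. There are 18 probe-sets higher in crown, 18 lower in crown and 27 that did not pass, over a range of −5.72 to 5.96. Over all probe-sets these classes hold 17.7%, 10.7% and 71.6%.

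The control arrays ask what the same transcripts did in Solstice plants that lost light and day-length but not warmth. They have no replicates, and their scale differs from that of Harnesk, the summed level of the crown markers being 1478 to 2075 on the control crown arrays, so each control value was read only against the other weeks of its tissue. The control leaf array of 9 weeks stood apart, since its rank correlations with the control leaf arrays of 3 and 5 weeks averaged 0.101. The same mean within a tissue was 0.436 to 0.648 for the other 5 control arrays. For the leaf arrays of 3 and 5 weeks this mean includes the pair with the array of 9 weeks. On it, neighbouring probe-sets of 1 cluster went together by 0.608, within the range of the other control arrays, which bears on the order of its rows. Why it stood apart was not tested, and counts that rest on it are given beside the change to 5 weeks.

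On the control crown arrays 11 of the 63 were at 0.5 or less at 9 weeks of their 3-week value (4.86% of all probe-sets) and 14 were at least 2-fold higher (11.5% of all). The median change over the 63 was −0.01 (log2), beside 0.00 over all probe-sets. At 5 weeks 0 of the 63 were at 0.5 or less (2.74% of all), 10 were at least 2-fold higher (3.36% of all), and 41 were above both 3 and 9 weeks (32.7% of all). From 5 to 9 weeks 17 then fell to 0.5 or less (1.37% of all) and 8 were at least 2-fold higher (3.91% of all). The control crown array of 3 weeks had the widest spread of the 6, with an interquartile range of 0.781 log2, and it is the baseline of the first of these counts. Of the 490 that fell by the rule in crown only, 66.9% were above both 3 and 9 weeks at 5 weeks, near the 65.1% of the 63. At 9 weeks 8.16% of the 490 were at 0.5 or less of 3 weeks, against 17.5% of the 63.

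On the control leaf arrays 19 of the 63 were at 0.5 or less at 9 weeks (3.36% of all) and 6 were at least 2-fold higher (11.2% of all), with a median of −0.35 beside −0.10. At 5 weeks 16 were at 0.5 or less (1.86% of all) and 0 were at least 2-fold higher (0.333% of all), with a median of −0.50 beside −0.01. This count does not use the array of 9 weeks. Of the 637 that fell by the rule in leaf only, 30.9% were at 0.5 or less at 9 weeks, near the 30.2% of the 63. At 5 weeks it was 16.2% of the 637, against 25.4% of the 63. From 5 to 9 weeks 9 were at 0.5 or less (2.94% of all) and 11 at least 2-fold higher (10.8% of all). In both control tissues at once, 3 of the 63 were at 0.5 or less at 9 weeks (0.523% of all) and 2 were at least 2-fold higher (4.57% of all).

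The 3 that fell in both control tissues were Ta.18082.1.S1_at, Ta.9101.1.A1_at and Ta.28599.1.S1_at. In Harnesk, Ta.18082.1.S1_at had 2.22 and 2.31, 1.32 and 1.55, and 0.38 and 0.45 in crown at 3, 5 and 9 weeks, and 2.27 and 2.61, 1.82 and 2.43, and 0.475 and 0.463 in leaf. It had 1.08, 1.27 and 0.35 on the control crown arrays, and 1.1, 1.00 and 0.20 on the control leaf arrays. In both sets of plants the loss came mainly after 5 weeks. Ta.28125.1.A1_at had 31.2, 44.8 and 5.97 on the control crown arrays and 0.85, 1.03 and 0.45 on the control leaf arrays. Ta.9172.1.S1_at had 2.92, 1.36 and 0.21 on the control leaf arrays, but 0.15, 0.34 and 0.18 on the control crown arrays.

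The opposite was seen for Ta.6665.3.S1_x_at and Ta.734.1.S1_at, the 2 that were at least 2-fold higher in both control tissues. In Harnesk, Ta.6665.3.S1_x_at had 4.51 and 4.66, 2.415 and 2.095, and 0.39 and 0.36 in crown at 3, 5 and 9 weeks, and 1.76 and 1.78, 1.00 and 1.06, and 0.34 and 0.33 in leaf. It had 2.08, 3.29 and 11.1 on the control crown arrays, and 1.09, 1.53 and 4.15 on the control leaf arrays. Its values thus went down at each harvest in Harnesk and up at each harvest in the control. Ta.734.1.S1_at had 2.57 and 2.65, 1.785 and 1.93, and 0.499 and 0.524 in Harnesk crown, and 0.81 and 0.85, 1.45 and 0.98, and 0.22 and 0.27 in Harnesk leaf. It had 1.21, 2.23 and 4.375 on the control crown arrays and 0.85, 1.502 and 2.54 on the control leaf arrays. Ta.20175.1.A1_at had 0.28 and 0.29 in Harnesk crown at 9 weeks, against 0.96 and 1.02 at 3 weeks, and 1.21 and 1.19 in Harnesk leaf, against 4.97 and 4.26. It had 0.28, 0.41 and 2.56 on the control crown arrays and 3.45, 3.52 and 6.55 on the control leaf arrays, so that the control values were highest at 9 weeks. These differences between Harnesk and the control were not tested.

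The transcripts that had fallen by 5 weeks in crown were also set apart on the control arrays, a grouping chosen after the data were seen. Of these 16, 12 were lowest at 5 weeks on the control leaf arrays, against 13 of the other 47 members and 27% of all probe-sets, and 9 of the 16 were at 0.5 or less of 3 weeks, against 7 of the other 47. Ta.9492.1.S1_at had 2.30, 0.22 and 6.75 on the control leaf arrays of 3, 5 and 9 weeks. TaAffx.111546.1.S1_s_at had 2.59, 0.55 and 12.1. On the control crown arrays Ta.9492.1.S1_at had 0.52, 1.13 and 0.54. The high values at 9 weeks rest on the array that stood apart.

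Of the 6 annotated genes, LOC780595 had 1.70, 2.43 and 1.01 on the control crown arrays and 0.13, 0.08 and 0.05 on the control leaf arrays, so that the leaf values were lower at each later harvest in Harnesk and in the control. LOC542947 had 0.07, 0.09 and 0.05 on the control crown arrays and 2.02, 1.40 and 0.57 on the control leaf arrays. LOC543137 had 1.73, 2.65 and 1.72 on the control crown arrays and 0.57, 0.55 and 0.46 on the control leaf arrays. LOC543147 had 0.99, 2.06 and 0.94 on the control crown arrays and 0.39, 0.39 and 0.39 on the control leaf arrays. Both were higher at 5 than at 3 weeks in Harnesk crown and in control crown, but at 9 weeks the control values were near those of 3 weeks. LOC543144 had 2.59, 3.71 and 1.63 on the control crown arrays and 0.48, 0.29 and 0.37 on the control leaf arrays. LOC100037609 had 0.51, 0.89 and 1.09 on the control crown arrays and 1.81, 1.28 and 1.02 on the control leaf arrays.

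**Figure D5:**
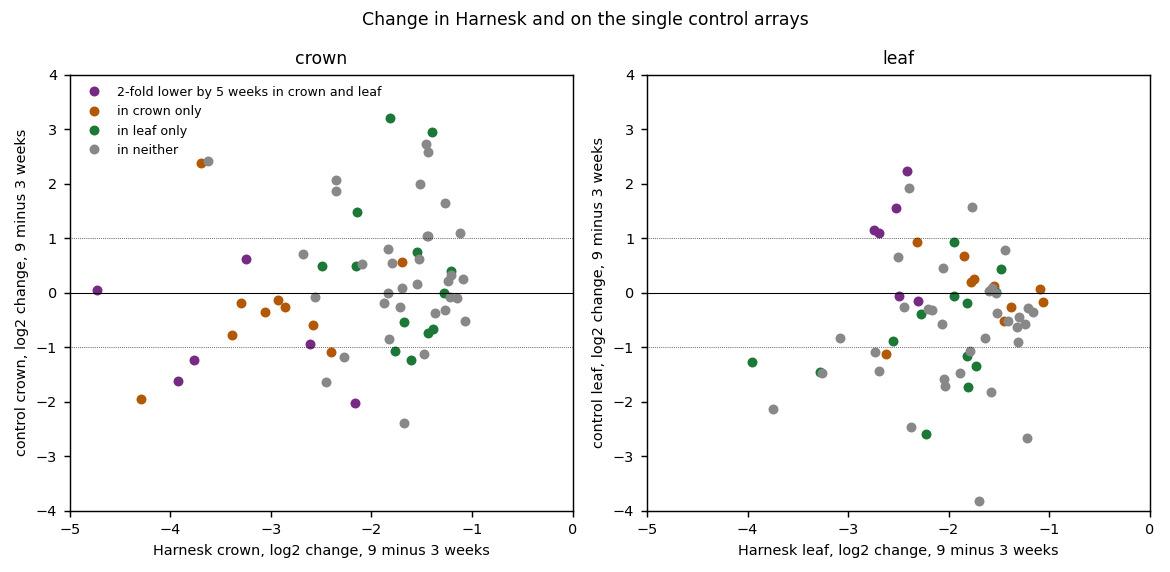
Change from 3 to 9 weeks on the single control arrays (y axis, log2) against that in Harnesk (x axis, log2 of 2-array means) for the 63 probe-sets in crown (left panel) and leaf (right panel), coloured by where they had fallen by 5 weeks in Harnesk; dotted lines mark 2-fold. All points are left of −1 by the choice of members, while the control changes spread on both sides of 0. At least 2-fold higher are 14 in crown (11.5% of all probe-sets) and 6 in leaf (11.2% of all).

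Other probe-sets of the same transcript clusters mostly fell too, but less. The clusters of the 63 hold 34 further probe-sets, in 20 clusters, and 27 of these (79.4%) had a lower mean at 9 than at 3 weeks in both tissues, against 25.4% of all probe-sets. They were read on the same arrays of 3 and 9 weeks that the rule used, and some may bind the transcripts of a member. This share is therefore not independent of the selection. Their median change was −0.62 in crown and −0.98 in leaf (log2). By construction none met the rule in both tissues, but 4 met it in crown and 13 in leaf. Ta.556.1.S1_at and Ta.556.1.S1_x_at changed by −5.35 and −5.41 in crown but by −0.45 and −0.36 in leaf, whereas Ta.556.2.A1_at, the member of that cluster, had 3.92 and 4.71 in crown at 9 weeks, against 10.9 and 9.85 at 3 weeks. Ta.6665.1.S1_at and Ta.6665.1.S1_x_at changed by 0.02 and 0.02 in crown and by 0.56 and 0.54 in leaf, and so did not follow the members of that cluster. Ta.4601.1.S1_s_at, of the cluster of LOC780595, changed by −0.78 in crown and −0.04 in leaf. Within Ta.9172, all 5 other probe-sets met the rule in leaf and none did in crown.

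Among 191 probe-sets of annotated pathways that were not members, 2 fell in both tissues (1.05%), against 1.49% of all probe-sets. At an adjusted p below 0.05 by limma over the 12 Harnesk arrays, 7.43% of all probe-sets fell and 3.57% rose in crown. In leaf 16.9% of all fell and 17% rose. Of 37 probe-sets of photosynthesis, 0 fell and 7 rose in crown, and 9 fell and 0 rose in leaf. These 37 stand for 7 genes, and most of them read 1 gene, rbcl (LOC100049018). Of 18 of histones and cell division, 4 fell and 0 rose in crown, and 1 fell and 1 rose in leaf. Of 5 of cold acclimation, which stand for 3 genes, 0 fell and 3 rose in crown, and none passed in leaf. The 3 that rose all read 1 gene, Rab15 (LOC543293). Of 11 of oxidative stress, 0 fell and 4 rose in crown, and 6 fell and 2 rose in leaf. None of these lists had a probe-set that fell in both tissues.

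Of 11 probe-sets of the cytoskeleton and cell wall, 2 fell and 0 rose in crown, and 7 fell and 2 rose in leaf. The one that fell in both was XTH (Ta.30703.1.S1_at), a xyloglucan endotransglucosylase/hydrolase that remodels the cell wall, at −1.02 ± 0.16 in crown and −0.85 ± 0.16 in leaf (SE, log2, adjusted p = 0.0013 and 0.0012 by limma). Of 4 probe-sets of gibberellin synthesis, which stand for 3 genes, all GA20ox1, 1 fell in crown and 2 in leaf, 1 of them in both, and 0 rose. The list holds no ent-kaurene synthase or ent-kaurene oxidase, whose transcripts the paper reports to have accumulated in leaf of both winter varieties. Of 7 of starch and fructan, 0 fell and 1 rose in crown, and 2 fell and 2 rose in leaf. Of 8 of defence, 1 fell and 1 rose in crown, and 0 fell and 2 rose in leaf. Of 28 placed under seed storage proteins and inhibitors, 1 fell and 1 rose in crown, and 6 fell and 1 rose in leaf. The 1 that fell in crown is the member LOC780595, which is also 1 of the 6 that fell in leaf. Its falls were fixed by the rule and are not a result about this list. The letters Glu of its name put it there, although it is a beta-glucosidase and no storage protein. Of 69 probe-sets of flowering genes that the study had gathered, 7 fell and 6 rose in crown, 10 fell and 24 rose in leaf, 0 fell in both, and none was among the 63.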

How the data were processed

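The deposited values are linear ratios: the authors extracted the images with Microarray Suite 5.0.1, normalised each chip by RMA and divided each gene by its median in GeneSpring GX 7.3. Of 61290 rows, 111 array controls were left out. The values were used as deposited and log2 was taken for differences and tests. The members, markers and gene lists were chosen with earlier results of these data known. Crown and leaf at 5 weeks were compared with limma 3.58.1 in R 4.3.3 (condition means, Benjamini-Hochberg over all probe-sets), and the same tool on 12 arrays served the gene lists. The analysis was tested on simulated data. Symbols came from the platform annotation (1273 probe-sets with 1 symbol, 59906 with none, 0 with several), matched by gene number to RefSeq, and all 6 annotated members matched. Lists were gathered by symbol or synonym, and some probe-sets, such as Ta.198.1.S1_at under photosynthesis and under starch, are in more than 1 list. Genes named were the annotated members, the 12 with the largest smaller fall, 3 on each side of the limit, clusters with 3 members, and the 3 largest rises and falls on the control arrays, and further members were named for their profile after their values were seen. The number of arrays limits the precision. Replicate numbers did not pair the samples (0 of 15 pairs of conditions over 0.1, from −0.094 to 0.071). Alternatives were quantile normalisation, median centring, a filter on dim probe-sets (mean of 0.1 or more), other forms of the rule, the methods' t-test, the replicate number as a block, a variance prior with trend, and leaving out single arrays. Sequences were not used here.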

Additional observations from a re-analysis of the deposited data

Results flagged for a closer look

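All 63 probe-sets were lower at 9 than at 3 weeks in both replicates of both Harnesk tissues, by the choice of members. At least 2-fold higher were 14 on the control crown arrays (11.5% of all probe-sets) and 6 on the control leaf arrays (11.2% of all). The control leaf array of 9 weeks stood apart from the other control leaf arrays. At 5 weeks 0 of the 63 were at least 2-fold higher in control leaf (0.333% of all). In both control tissues 2 were higher (4.57% of all probe-sets). These were Ta.6665.3.S1_x_at, with control changes of 2.41 in crown and 1.92 in leaf (log2), and Ta.734.1.S1_at, with 1.85 in crown and 1.57 in leaf. Their control leaf changes to 5 weeks were 0.49 for the first and 0.82 for the second. They are listed because the arrays of Harnesk and of the control moved in opposite directions. The difference was not tested, the control has 1 array per tissue and week, and the variety differs as well as the temperature.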

How the results depend on the processing

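The count of 63 was 91 after quantile normalisation, with 48 of the 63 among them, and 56 after median centring, all among the 63. It was 98 with means of the replicates in the rule, 97 with limma (adjusted p below 0.05 and 2-fold in both tissues), both holding all 63, and 20 at 3-fold. Leaving out single arrays gave 63 to 77. Leaving out single arrays gave 16 to 19 members higher and 17 to 20 lower in crown at 5 weeks, and 16 to 20 in crown and 21 to 26 in leaf at 0.5 or less by 5 weeks. With the replicate block the counts at 5 weeks stayed at 18 higher and 18 lower, with the same members, and the medians from 3 to 9 weeks at −1.80 in crown and −1.84 in leaf. The gene lists were not fitted with the block. The methods' t-test gave 16 higher and 16 lower unadjusted, and 14 and 13 after Benjamini-Hochberg. On the control crown arrays, 11 members at 0.5 or less became 17 with 5 weeks as baseline and 0 with 5 weeks as end point, and on the control leaf arrays 19 became 9 with 5 weeks as baseline. The median change in crown was −2.03 after quantile normalisation. The causes were not tested. The changes of the 6 annotated members kept their direction under quantile normalisation and median centring, with LOC100037609 in crown moving most, to −1.71 from −1.12.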
